A study of Mus musculus with 15 samples.

Results

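The RNA levels of 47 genes that encode the receptors for glutamate and for GABA were followed here in the brain. Members were taken as every locus whose gene name is a stem of these families (Gria, Grik, Grid, Grm, Grin, Gabr or Gabbr) followed by its subunit number or letter, which gave 47 of the 23589 loci with a gene name in the table. Reading the stems as open prefixes would add 2 loci with longer names, for 49. The locus of Grik2 also carries the name C130030K03Rik and the locus of Gabrd the name 2010015L04Rik, so their reads cannot be told apart. Hypothalamus and hippocampus of male C57BL/6 mice were sequenced after 3 diets, with liver, epididymal fat and colon of the same groups. AL mice were fed ad libitum and were 5 months of age. DR mice received 60% of the AL food from 4 months of age for 1 month and were also 5 months of age. DR-AL mice had the same month of restriction, returned to AL feeding for 2 months and were 7 months of age, so diet and age cannot be told apart in them. Each library was made from the pooled RNA of 5 mice, so that a region has 3 libraries and a diet within a region has 1.

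Glutamate opens ion channels made of AMPA (Gria), kainate (Grik) or NMDA (Grin) subunits and also acts through metabotropic receptors (Grm) that couple to G proteins. GABA opens chloride channels, the GABA-A receptors, which are usually built from alpha, beta and gamma or delta subunits, and acts more slowly through GABA-B receptors (Gabbr), which pair a Gabbr1 with a Gabbr2 subunit. The choice of subunit sets where a receptor sits, how fast it closes and which drugs and steroids act on it, and subunit use differs widely between brain regions.

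The 6 brain libraries held between 25159857 and 40500130 counts on named loci. Receptor genes took between 0.594% and 0.616% of these counts in the hypothalamus and between 0.834% and 0.872% in the hippocampus, and between 41 and 43 of the 47 genes had more than 3 counts in each library. The share was at most 0.00696% in liver, 0.0205% in fat and 0.00587% in colon. The labelled regions were checked against markers. All 13 genes of a hypothalamus list (such as Pmch, Oxt and Agrp) were higher in the hypothalamus, with summed levels between 1116 and 1428 CPM (counts scaled to a common library total) there and between 5.25 and 12.003 CPM in the hippocampus. All 9 genes of a list for telencephalic excitatory neurons were higher in the hippocampus, with summed levels between 1867 and 2082 CPM. In the hypothalamus the same list summed to 14.8 CPM in the AL library, 75.2 CPM in DR and 57.9 CPM in DR-AL, so the 3 hypothalamus libraries differ in a signal that belongs to another region.

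Because the study asks whether DNA methylation at CG sites takes part in the memory of DR, the stretches before the start of 4 receptor genes are shown with their CG sites in capitals. Gabre, Gabra3 and Gabrq are neighbours on the X chromosome that differed widely in their regional pattern, and Grm2 had the largest difference between DR and AL among well counted receptor genes of the hypothalamus. Sequences are those of RefSeq on GRCm38.p6, read along the gene's strand and cut where GENCODE M21 begins the gene. Gabre lies at chrX:72274804-72274971 on the minus strand (168 bases, 17 CG sites), Gabra3 at chrX:72656920-72657169 on the minus strand (250 bases), Gabrq at chrX:72824928-72825177 on the plus strand (250 bases, 19 CG sites) and Grm2 at chr9:106656110-106656359 on the minus strand (250 bases, 16 CG sites).
Gabre: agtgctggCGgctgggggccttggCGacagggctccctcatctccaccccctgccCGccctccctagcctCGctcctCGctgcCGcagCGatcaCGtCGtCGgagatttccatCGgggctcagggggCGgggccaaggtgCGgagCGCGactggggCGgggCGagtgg
Gabra3: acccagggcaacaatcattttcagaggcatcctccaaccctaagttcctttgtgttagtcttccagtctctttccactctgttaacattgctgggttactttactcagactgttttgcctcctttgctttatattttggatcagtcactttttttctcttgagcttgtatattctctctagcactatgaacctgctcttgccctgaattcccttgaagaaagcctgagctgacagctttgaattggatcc
Gabrq: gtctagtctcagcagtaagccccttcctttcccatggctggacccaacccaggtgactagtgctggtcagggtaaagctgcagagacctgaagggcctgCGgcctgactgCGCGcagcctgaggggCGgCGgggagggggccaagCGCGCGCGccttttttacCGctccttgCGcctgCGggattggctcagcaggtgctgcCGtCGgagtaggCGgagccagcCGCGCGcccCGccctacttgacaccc
Grm2: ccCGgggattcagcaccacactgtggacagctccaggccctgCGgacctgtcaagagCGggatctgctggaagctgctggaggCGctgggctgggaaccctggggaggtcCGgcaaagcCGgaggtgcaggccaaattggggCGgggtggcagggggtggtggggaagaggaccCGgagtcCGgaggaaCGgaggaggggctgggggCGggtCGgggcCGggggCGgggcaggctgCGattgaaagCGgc
Of the 47 genes, 32 had a promoter in the RefSeq table, and Grin2a, Grin2b and Gabrd were among those without an entry. Over the 250 bases before the start, the first listed promoter of these 32 genes held a median of 10.5 CG sites, against 6 over all 32851 promoters of the table, and 7 of the 32 held at least 20, as did 17.9% of all promoters. Gabra3 held 0 CG sites in each of its listed promoters, which was the case in 7.87% of all promoters. The palindrome TGACGTCA, which reads the same on both strands and contains a CG site, was found in 0 of the 39 promoters of receptor genes and in 1.55% of all promoters. Methylation was not measured in these libraries, so these counts are a description of the sequence.

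Receptor genes were first compared between the regions. A quasi-likelihood test (edgeR) with region and diet as terms was fitted over the 6 libraries, in which 43 of the 47 genes passed the filter on low counts. Of these, 20 were higher in the hippocampus, where 33.4% of all 15742 genes tested were called, and 15 were higher in the hypothalamus, where 34.6% were called. The other 8 genes did not pass an adjusted p of 0.05. The filter left out Grm6, Gabra6, Gabrp and Gabrr3, which had at most 3 counts in every brain library. Both regions come from the same mice, and the fit leaves 2 residual degrees of freedom per gene. The test moderates each gene's spread with that of all genes tested, so the p-values also draw on other genes. With 1 library per region and diet, the residual degrees of freedom hold how far the regional difference varies between the diets. The spread between replicate pools of a region and diet was not measured. The median difference of the 43 genes was 0.29 on the log2 scale, hippocampus minus hypothalamus, against -0.01 over all genes tested. Scaling by library totals in place of TMM moved the median of all genes to -0.24 and that of the receptor genes to 0.06, so small differences below depend on the scaling, and the CPM values given here are scaled by totals. In bulk tissue, a lower level can mean fewer cells that use a gene or less RNA of it per cell, and these cannot be told apart.

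**Figure D1:**
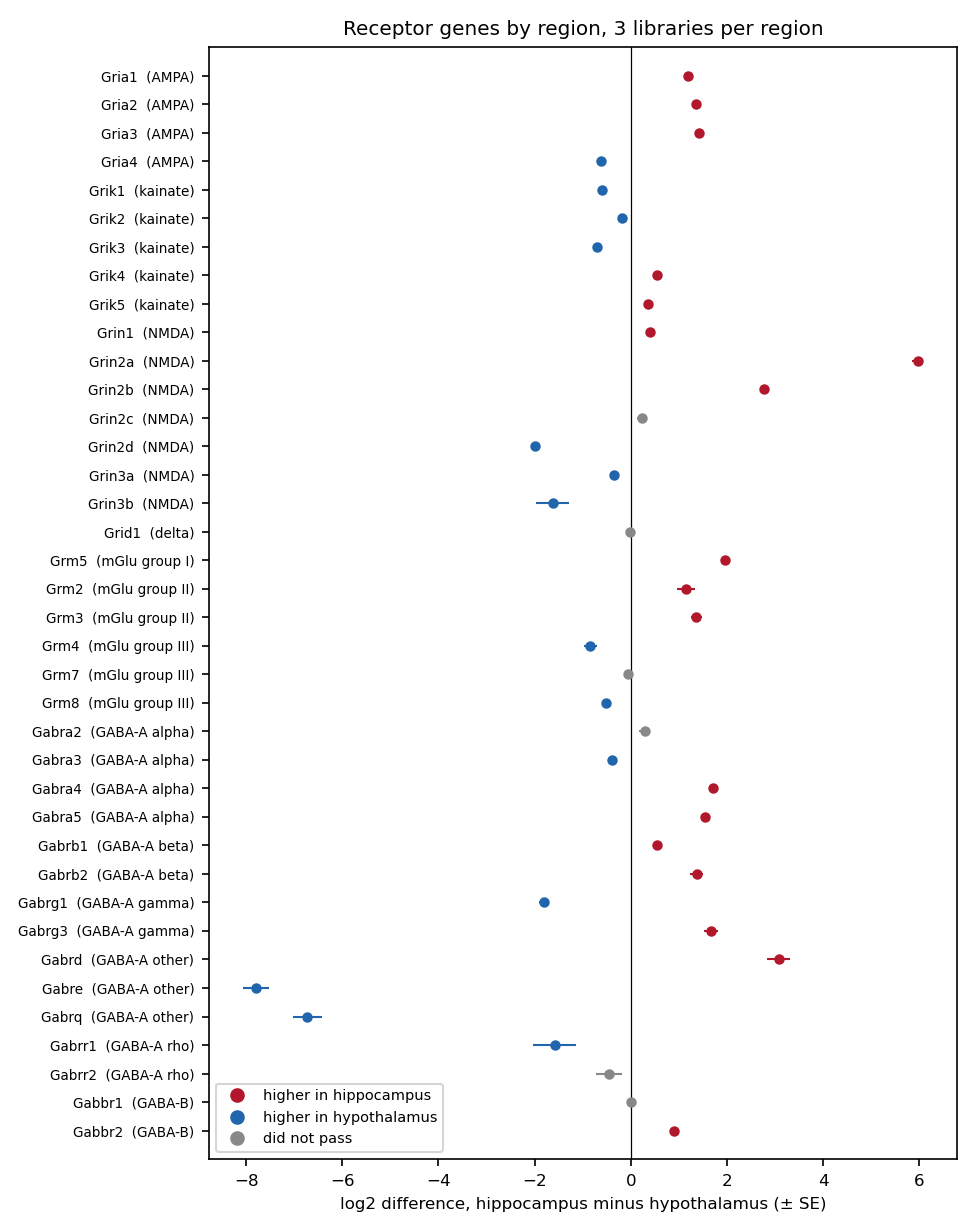
Log2 difference in level (hippocampus minus hypothalamus, x axis) of 38 of the 43 receptor genes tested, ordered by family on the y axis, with the standard error as a bar. Red points were higher in the hippocampus (18 genes), blue points higher in the hypothalamus (14 genes) and grey points did not pass (6 genes), and Gabre at -7.80 and Grin2a at 5.97 mark the ends of the range.

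AMPA receptors carry most fast excitation. Gria1, Gria2 and Gria3 were higher in the hippocampus by 1.19, 1.35 and 1.42 on the log2 scale (SE 0.083, 0.072 and 0.053), and Gria4 was 1.53-fold higher in the hypothalamus. Gria1 measured 644, 570 and 528 CPM in the AL, DR and DR-AL libraries of the hypothalamus and 1096, 1193 and 1083 CPM in those of the hippocampus. Among genes of different length, levels can be compared only as FPKM within a library. On that scale Gria1 was the highest AMPA subunit in all 6 libraries, and Gria4 made up between 19.2% and 22.5% of the summed AMPA FPKM in the hypothalamus and between 5.11% and 5.98% in the hippocampus. Gria2, whose edited subunit keeps AMPA receptors closed to calcium, held between 25.6% and 26.5% in the hypothalamus and between 33.9% and 37.4% in the hippocampus.

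Kainate receptors split by subunit. Grik1, Grik2 and Grik3, which can form channels alone, were higher in the hypothalamus by 1.52-fold, 1.13-fold and 1.63-fold. Grik4 and Grik5, the high-affinity subunits that need a partner, were higher in the hippocampus by 1.46-fold and 1.29-fold. The smaller differences rest on the scaling, since the CPM values of Grik5 overlapped between the regions (between 186 and 224 CPM in the hypothalamus, between 223 and 225 CPM in the hippocampus) and its adjusted p was 0.10 with library totals. Grik5 had the highest FPKM of the family in all 6 libraries. Grid1, a delta subunit, which resembles these channels but binds synapse organizers, did not pass (-0.01, SE 0.054), but was called with library totals (-0.24, edgeR adjusted p = 0.0049).

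NMDA receptors, the coincidence detectors of synaptic plasticity, showed the widest regional range of the glutamate receptors. Grin2a measured 3.98, 3.15 and 3.27 CPM in the AL, DR and DR-AL libraries of the hypothalamus and 175, 199 and 180 CPM in those of the hippocampus. All 3 hippocampus libraries were thus far above all 3 hypothalamus libraries, and Grin2a was 62.7-fold higher in the hippocampus (log2 difference 5.97, SE 0.11, edgeR adjusted p = 2.94e-06). Grin2b measured 109, 109 and 108 CPM in the hypothalamus and 580, 684 and 652 CPM in the hippocampus, a difference of 2.78 on the log2 scale (SE 0.073). Grin2d, a subunit of slowly closing receptors, went the other way with 52.5, 54.9 and 75.9 CPM in the hypothalamus against 12.2, 12.6 and 14.2 CPM in the hippocampus, 3.95-fold higher in the hypothalamus. Grin3b was low throughout, at 18, 25 and 31 counts in the hypothalamus and 5, 6 and 9 in the hippocampus, and was 3.09-fold higher in the hypothalamus. The obligatory subunit Grin1 differed far less (0.40, SE 0.062), Grin3a was 1.27-fold higher in the hypothalamus, and Grin2c did not pass (0.23, SE 0.10).

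The mixture of GluN2 subunits, which decides the kinetics of the NMDA channel, was therefore distinct in the regions. As a share of the summed FPKM of the 4 Grin2 genes, Grin2d held between 47.5% and 51.7% in the hypothalamus and between 5.94% and 7.27% in the hippocampus. Grin2a held between 0.893% and 1.51% in the hypothalamus and between 27.8% and 29.6% in the hippocampus, and Grin2b between 14.3% and 20.1% against between 45.9% and 48.7%. Grin2c held between 30.9% and 33.1% against between 15.02% and 19.2%. The 4 shares of a library are parts of 1 whole, so they are not 4 separate differences. In CPM, Grin2c overlapped between the regions (between 30.5 and 44.8 in the hypothalamus, between 32.3 and 37.6 in the hippocampus).

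**Figure D2:**
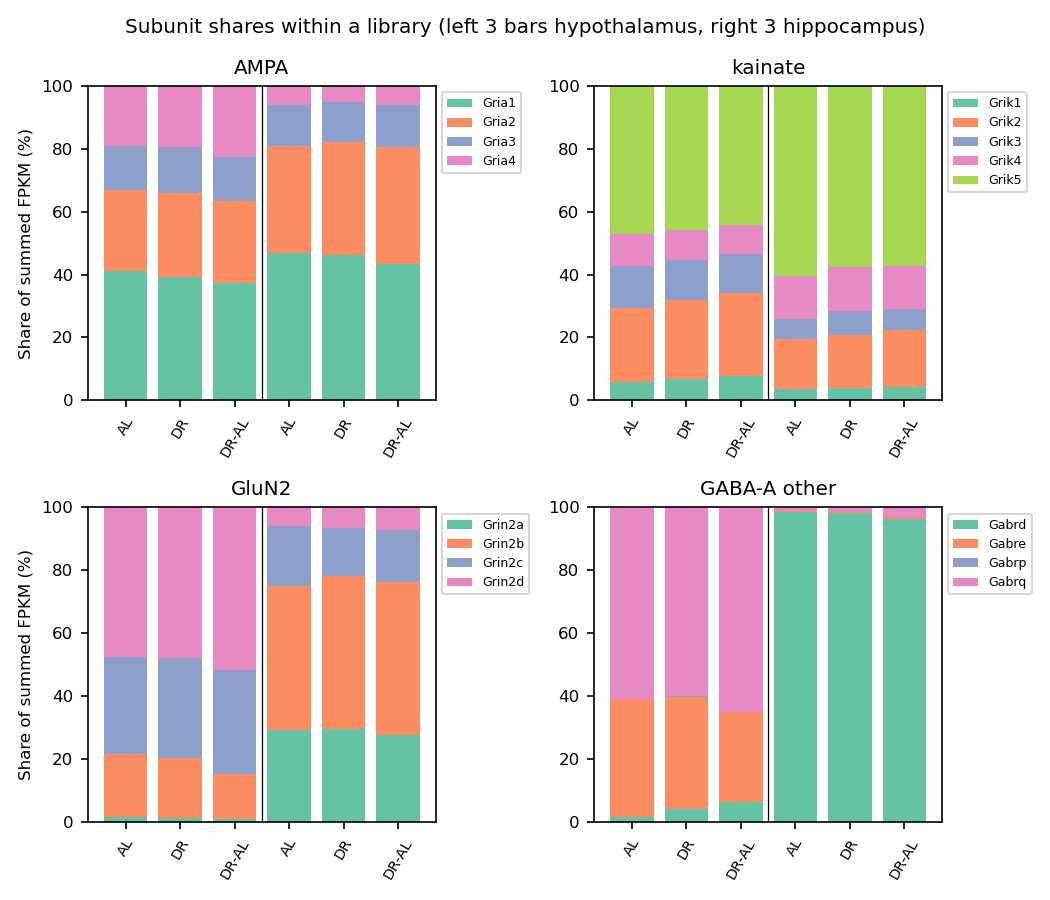
Share of the summed FPKM of a subunit family (y axis, percent) that each subunit gene took within a library, with the 3 left bars of each panel for the hypothalamus (AL, DR, DR-AL) and the 3 right bars for the hippocampus. Grin2d holds between 47.5% and 51.7% of the GluN2 bars in the hypothalamus, and the panel of other GABA-A subunits passes from Gabrq and Gabre in the hypothalamus to Gabrd, with at least 96.2%, in the hippocampus.

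Metabotropic receptors differed by group. In group I, which couples to phospholipase C, Grm5 measured 108, 110 and 105 CPM in the hypothalamus and 336, 389 and 357 CPM in the hippocampus, a difference of 1.97 on the log2 scale (SE 0.063). Both group II genes, whose receptors damp transmitter release, were higher in the hippocampus, Grm2 by 1.15 (SE 0.19) and Grm3 by 1.37 (SE 0.11). Of group III, which acts mainly at presynaptic terminals, Grm4 and Grm8 were higher in the hypothalamus by 1.79-fold and 1.44-fold and Grm7 did not pass (-0.06, SE 0.049), but was called with library totals (-0.29, edgeR adjusted p = 0.0025). Grm7 was the highest of group III by FPKM in all 6 libraries. Grm6, the receptor of retinal bipolar cells, had 0 counts in 5 brain libraries and 2 counts in the DR library of the hippocampus, where a count of 0 allows up to 3 counts.

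GABA-A receptors differed between the regions in nearly every kind of subunit. Among alpha subunits, Gabra4 measured 44.2, 48.2 and 55.2 CPM in the hypothalamus and 140, 135 and 137 CPM in the hippocampus, 3.29-fold higher there. Gabra5, a subunit known for extrasynaptic receptors of hippocampal pyramidal cells, was 2.93-fold higher in the hippocampus. Gabra3 was 1.31-fold higher in the hypothalamus, and Gabra2 did not pass (0.29, SE 0.11). Of the beta genes, Gabrb1 was higher in the hippocampus by 0.54 and Gabrb2 by 1.37 on the log2 scale (SE 0.077 and 0.14).

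Gamma genes went opposite ways. Gabrg1 measured 135, 127 and 120 CPM in the hypothalamus and 29.6, 27.3 and 36.4 CPM in the hippocampus, 3.50-fold higher in the hypothalamus. Gabrg3 was low, at 42, 59 and 58 counts in the hypothalamus and 157, 144 and 135 counts in the hippocampus, and was 3.19-fold higher in the hippocampus. Gabrg1 took between 24.9% and 29.7% of the gamma FPKM in the hypothalamus and between 8.09% and 11.3% in the hippocampus.

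The largest regional differences of all 43 genes lay in the remaining GABA-A subunits. Gabre, the epsilon subunit, measured 93.6, 66.2 and 46.6 CPM in the AL, DR and DR-AL libraries of the hypothalamus and 0.272, 0.0961 and 0.477 CPM in those of the hippocampus, where this was 11, 3 and 12 counts. Gabrq, the theta subunit, measured 188, 141 and 133 CPM in the hypothalamus and 0.741, 0.993 and 2.27 CPM in the hippocampus, or 30, 31 and 57 counts. The fitted differences were 223-fold for Gabre (log2 -7.80, SE 0.27) and 106-fold for Gabrq (log2 -6.73, SE 0.30), higher in the hypothalamus. With so few counts in the hippocampus, the counting intervals of the log2 difference within a diet were wide for Gabre, from 7.59 to 9.43 in AL, from 7.88 to 11.7 in DR and from 5.80 to 7.57 in DR-AL. Gabrd, the delta subunit of extrasynaptic receptors in dentate granule cells, was the reverse, with 1.89, 3.45 and 4.58 CPM in the hypothalamus and 23.7, 23.4 and 22.6 CPM in the hippocampus, an 8.44-fold difference (log2 3.08, SE 0.24). Within this group of 4 genes Gabrq took between 60.1% and 65.5% of the summed FPKM in the hypothalamus, and Gabrd between 96.2% and 98.4% in the hippocampus.

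Of the rho subunits, best known from the retina, Gabrr1 had 14, 15 and 14 counts in the hypothalamus and 8, 3 and 2 in the hippocampus, 3.0-fold higher in the hypothalamus, and Gabrr2 did not pass. Of the GABA-B genes, Gabbr2 was 1.88-fold higher in the hippocampus, and Gabbr1 showed a difference of 0.01 (SE 0.061) that was -0.22 with library totals, where it was called (edgeR adjusted p = 0.0087). Gabbr1 had the highest FPKM of all receptor genes in the 3 hypothalamus libraries, between 86.6 and 95.3, and Gria1 in the 3 hippocampus libraries, between 127 and 152.

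**Figure D3:**
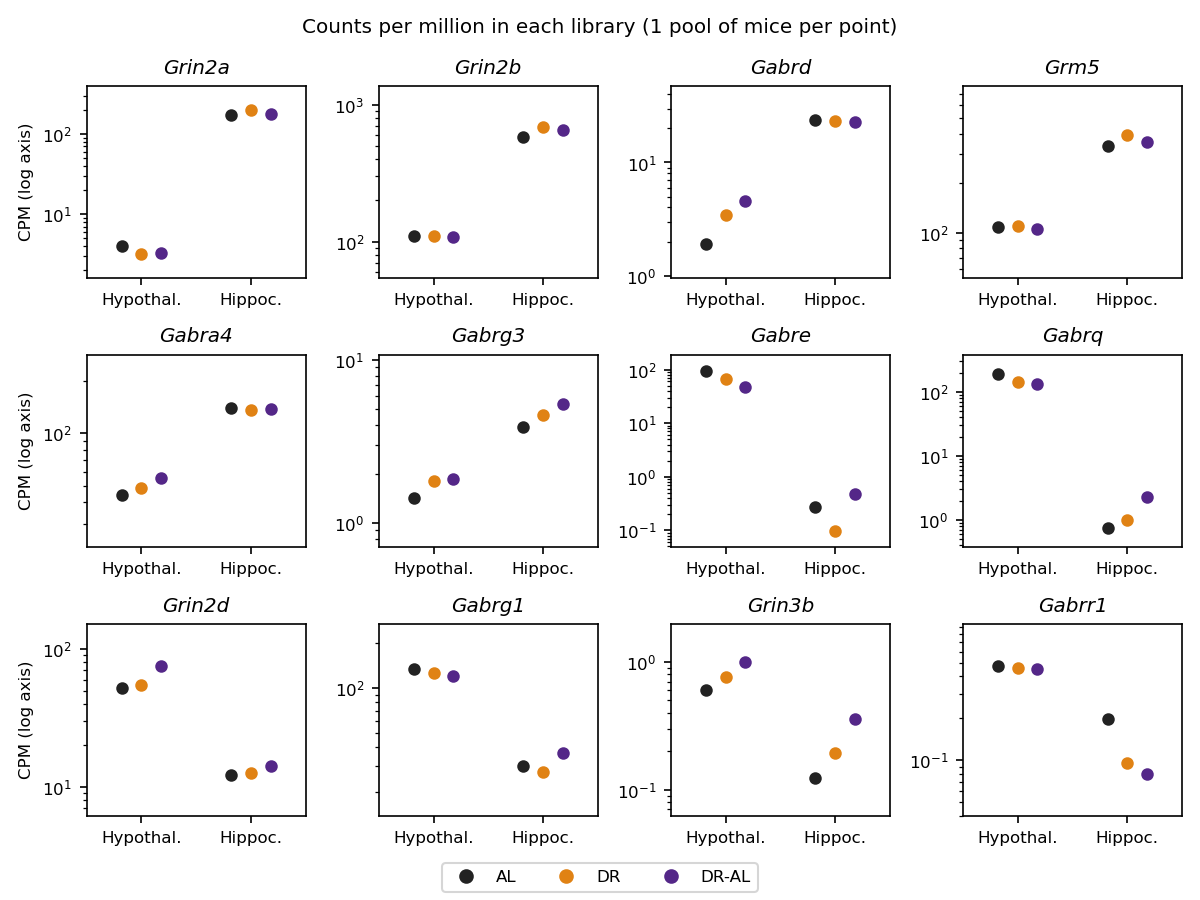
Level in CPM (y axis, log scale, each panel with its own range) in the 6 brain libraries for the 6 receptor genes with the largest difference in each direction, with black for AL, orange for DR and purple for DR-AL and 1 point per library. Since the genes were chosen for their large differences in these libraries, the gap between the regions in every panel follows from that choice. It is by far the widest for Grin2a, Gabre and Gabrq.

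Many GABA-A genes lie in clusters that hold an alpha, a beta and a gamma or related gene, and neighbours did not always share a regional direction. In the cluster of Gabrg1, Gabra2, Gabra4 and Gabrb1 on chromosome 5 (1401 kb in the coordinates of the table), Gabrg1 was higher in the hypothalamus and Gabra4 and Gabrb1 in the hippocampus. In the X-linked cluster of Gabre, Gabra3 and Gabrq (587 kb), Gabra3 measured 172, 169 and 180 CPM in the hypothalamus and 110, 109 and 121 CPM in the hippocampus, a 1.31-fold difference beside the 223-fold and 106-fold differences of its neighbours. On chromosome 7, Gabrg3 and Gabra5 were both higher in the hippocampus. On chromosome 11, Gabrb2 was higher in the hippocampus, and Gabra6, known from cerebellar granule cells, had at most 2 counts in a brain library.

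The partners of these receptors, taken from 3 lists, were set beside them. Of all genes tested, 33.4% were called higher in the hippocampus and 34.6% in the hypothalamus. Of 36 tested auxiliary subunits and scaffolds of excitatory synapses, 25 were higher in the hippocampus and 8 in the hypothalamus, with a median log2 difference of 0.84. Shisa6, which slows AMPA receptor closing, led in the hippocampus with 3.69 (SE 0.086), followed by the postsynaptic adaptor Homer3 with 2.89 (SE 0.071), and Cbln1, which ties delta receptors to presynaptic neurexins, led in the hypothalamus with -3.26 (SE 0.094), followed by the AMPA receptor binding protein Grip2 with -1.92 (SE 0.099). Of 15 scaffolds and partners of inhibitory synapses, 7 were higher in the hippocampus and 5 in the hypothalamus (median 0.10). The GABA-B auxiliary subunits Kctd16 and Kctd12 led in the hippocampus with 1.84 (SE 0.072) and 1.62 (SE 0.085), and Kctd12b and the adhesion protein Nlgn2 led in the hypothalamus with -0.52 (SE 0.11) and -0.40 (SE 0.062). Of 20 genes of transmitter synthesis and transport, 7 were higher in the hippocampus and 8 in the hypothalamus (median 0.07). The vesicular glutamate transporters went opposite ways, Slc17a7 by 6.92 (SE 0.73) and Slc17a6 by -2.94 (SE 0.099), as did the transporters Slc1a2 for glutamate, by 1.65 (SE 0.088), and Slc6a11 for GABA, by -2.47 (SE 0.062).

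Diet was compared next. In the same fit, the DR coefficient and the DR-AL coefficient, each an effect shared by both regions, were past the threshold in 0 of the 43 receptor genes, where 0.00635% and 0% of all genes were called. At an unadjusted p under 0.05 there were 0 receptor genes for DR and 9 for DR-AL, where 4.53% and 8.66% of all genes lay under it. DESeq2 also called 0 and 0, and the smallest adjusted p by edgeR was 0.945 and 0.464. Among the 9 genes were Grik1, Grin2c, Grin2d, Grm4, Grm8, Gabra5, Gabrg3 and Gabre. The counts past the adjusted threshold were not stable. The DR-AL count rose above 0 when the DR-AL library of the hippocampus was left out, and both counts did without its AL library. Each of these fits leaves 1 library for the diet concerned.

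Within a region, a diet has 1 library. The Z test of the methods compares the reads of 2 libraries by counting error alone and has no replicate check, so its calls describe these libraries and not the diets. A gene was called at an adjusted p under 0.05 and a level at least 25% above that of the other library (a lower gene being one whose level in the other library is at least 25% above), and no p-value is given here. Differences are log2 ratios of scaled counts, and the 95% intervals (exact Clopper-Pearson) cover counting error only. Comparisons with AL share the AL library.

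In the hypothalamus, DR against AL gave 3 receptor genes higher of 46 tested, where 4.33% of all genes were called higher, and 2 lower, where 2.72% were called lower. Grm2 measured 22.7 CPM in AL and 45.8 CPM in DR, a difference of 1.01 (interval 0.88 to 1.15), and the DR-AL library at 41.8 CPM stayed close to DR. Gabrd measured 1.89, 3.45 and 4.58 CPM in AL, DR and DR-AL, or 56, 113 and 143 counts, a DR difference of 0.87 (interval 0.40 to 1.36). Grm4 measured 25.1, 33.3 and 42.8 CPM, a DR difference of 0.41 (interval 0.27 to 0.54). Gabre and Gabrq were the 2 lower genes, by -0.50 (interval -0.58 to -0.42) and -0.42 (interval -0.47 to -0.36).

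DR-AL against AL gave more calls in the hypothalamus, with 10 receptor genes higher (6.06% of all genes) and 4 lower (9.02% of all genes). All 5 genes called in DR were called in the same direction in DR-AL, which shares the AL library. Gabrd was higher by 1.27 (interval 0.82 to 1.75), Grm2 by 0.88 (interval 0.75 to 1.02) and Grm4 by 0.77 (interval 0.64 to 0.90). Gabre was at -1.01 (interval -1.10 to -0.91), Gabra5 at -0.65 (interval -0.72 to -0.57) and Gabrq at -0.50 (interval -0.56 to -0.44). Gabrr2, Gabrb2, Grin2c, Grin2d and Grm3 were also called higher, with differences between 0.36 and 0.88.

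Against DR, the DR-AL library gave 7 receptor genes higher (2.82% of all genes) and 2 lower (6.8% of all genes). Grin2c (31.5 CPM in DR, 44.8 CPM in DR-AL) was higher by 0.51, Grin2d (54.9 and 75.9 CPM) by 0.47 and Gabrb2 (157 and 205 CPM) by 0.39, and Gabrr2 and Grm4 were also called. Gabre was lower by a further -0.51 and Gabra5 by -0.36. For Grin2c, Grin2d, Gabrb2 and Gabrr2 the AL and DR libraries lay closer together than either lay to DR-AL.

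The mixture of alpha and beta subunits varied among the hypothalamus libraries. Gabra5 measured 124, 101 and 78.8 CPM and Gabrb2 134, 157 and 205 CPM in AL, DR and DR-AL. By FPKM, Gabra5 ranged between 12.05% and 21.7% of the alpha subunits over the hypothalamus libraries and between 27.7% and 30.2% over the hippocampus libraries. Gabrb2 ranged between 21.7% and 35.8% of the beta subunits in the hypothalamus and between 32.8% and 33.2% in the hippocampus. The hypothalamus libraries spread over a wider range than those of the hippocampus for both genes.

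**Figure D4:**
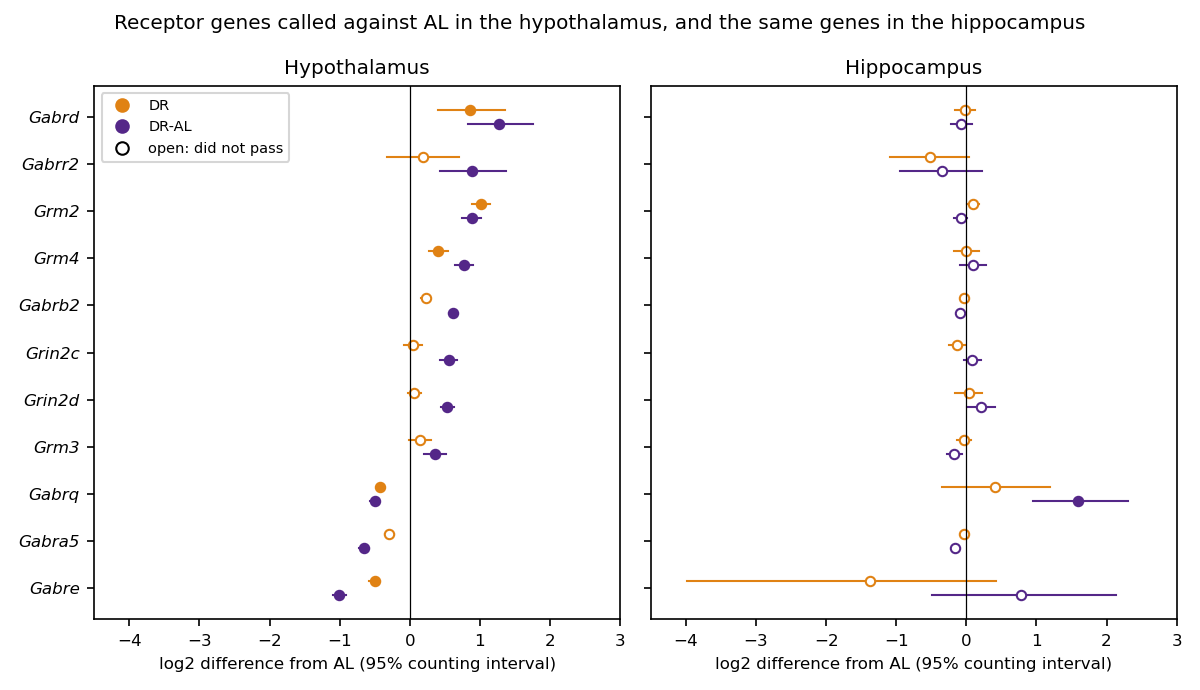
Log2 difference from the AL library (x axis) of 11 of the 14 receptor genes called against AL in the hypothalamus, in the hypothalamus (left) and in the hippocampus (right), with orange for DR, purple for DR-AL, filled points for genes called and lines for 95% counting intervals. Gabrd, Grm2 and Grm4 are higher and Gabre and Gabrq lower in both hypothalamus comparisons, and in the hippocampus Gabrq alone is filled, at 1.59.

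These hypothalamus libraries also differed in markers of neighbouring regions and of glia, and the part of these in the receptor calls was not tested. Of all genes, 4.33% were called higher and 2.72% lower in DR, and 6.06% higher and 9.02% lower in DR-AL. None of the 9 genes for telencephalic excitatory neurons was at 0 counts in a hypothalamus library. Of these 9 genes, 8 were called higher and 1 lower in DR and 7 higher and 1 lower in DR-AL. Of 5 thalamus genes, 1 was called higher and 1 lower in DR and 4 higher in DR-AL, with summed levels of 94.3, 118 and 194 CPM in AL, DR and DR-AL. The hypothalamus list summed to 1428, 1259 and 1116 CPM, with 4 genes higher and 2 lower in DR and 4 higher and 6 lower in DR-AL. Avp weighed most in the AL sum and measured 471, 267 and 158 CPM in AL, DR and DR-AL. Its members did not share 1 order, since Pmch measured 141, 185 and 213 CPM. Oligodendrocyte genes summed to 3776, 4183 and 5657 CPM, with 5 of 6 called higher in DR-AL. Endothelial genes summed to 107, 126 and 151 CPM, with 4 of 4 called higher in DR-AL, neuron genes to 3901, 4144 and 4656 CPM, with 3 of 7 called higher, and cerebellar granule cell genes to 35.2, 43.2 and 59.1 CPM, with 2 of 5 called higher. The sums of the thalamus, oligodendrocyte, endothelial, neuron and cerebellar lists thus rank AL, DR, DR-AL, which was also the order of Gabrb2, Grm3, Grm4, Gabrd, Gabrr2, Grin2c and Grin2d. The sum of the hypothalamus list, though not each of its members, ranks in reverse, as did Gabre, Gabrq and Gabra5. In the same reverse order were the hippocampus list (361, 291 and 235 CPM) and the astrocyte list (1080, 1061 and 907 CPM). The microglia (162, 148 and 140 CPM), choroid plexus (71.6, 65.8 and 47.8 CPM) and striatum (178, 167 and 149 CPM) lists followed it too. The oligodendrocyte precursor and pituitary lists took neither order. The order of the telencephalic sum, with DR highest, was that of Grm2. A shared order over 3 libraries is a description, and its link to the receptor genes was not tested. Grin2a, the receptor gene that marked the hippocampus most, stayed at 118, 103 and 102 counts in the hypothalamus libraries.

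**Figure D5:**
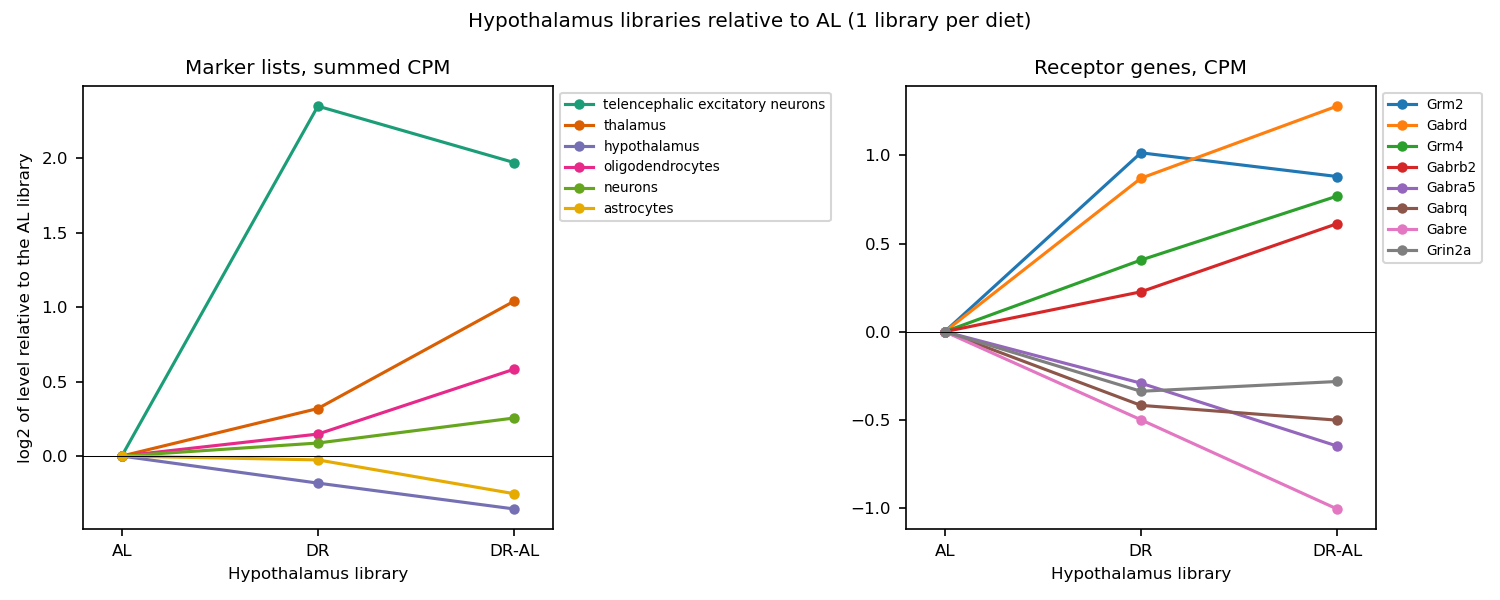
Log2 of the level relative to the AL library (y axis) in the 3 hypothalamus libraries (x axis, 1 library per diet), for the summed CPM of 6 marker lists (left) and for the CPM of 8 receptor genes (right). The telencephalic sum is 14.8, 75.2 and 57.9 CPM in AL, DR and DR-AL, the thalamus sum 94.3, 118 and 194 CPM and the hypothalamus sum 1428, 1259 and 1116 CPM, and Grm2, Gabrd, Grm4 and Gabrb2 lie above and Gabre, Gabrq and Gabra5 below the AL level.

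In the hippocampus the counts called lay near the background. DR against AL gave 0 of 47 receptor genes higher (1.36% of all genes) and 0 lower (2.67% of all genes), a test of reads with no replicates. DR-AL against AL gave 3 higher (3.99% of all genes) and 0 lower (2.16% of all genes), namely Gabrq by 1.59 (30 against 57 counts, interval 0.95 to 2.30), Gabrg3 by 0.47 (157 against 135 counts in libraries of unequal depth, interval 0.13 to 0.81) and Gabra2 by 0.40 (64.8 against 85.6 CPM, interval 0.32 to 0.49). DR-AL against DR gave 3 higher (3.63% of all genes) and 0 lower (1.26% of all genes), namely Gabrg1 by 0.42 (interval 0.28 to 0.55), Gabrq by 1.18 and Gabre, with 3 against 12 counts, by 2.12 (interval 0.42 to 4.78). In the DR-AL library of the hippocampus the hypothalamus list summed to 12.003 CPM, against 5.88 in AL and 5.25 in DR, with 4 of 13 genes called higher against AL, and a striatum list summed to 213 CPM against 98.6 and 87.3, with 5 of 5 called higher. The part of these in the Gabrq and Gabre values was not tested.

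The spread of the well counted receptor genes can be read against that of all genes. Where a gene's counts in a region averaged 100 or more, the median absolute log2 difference of DR-AL from AL was 0.28 over 39 receptor genes and 0.13 over 12869 genes in the hypothalamus, and 0.093 over 38 receptor genes and 0.098 over 12312 genes in the hippocampus. For DR against AL these medians were 0.12 and 0.087 in the hypothalamus and 0.070 and 0.083 in the hippocampus. In DR, 38 of 38 receptor genes of the hippocampus stayed within the 25% margin, as did 95.3% of all such genes, and 33 of 39 in the hypothalamus, as did 92.1% of all such genes. Whether the regions differ in their response was not tested.

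The partner lists were read in the hypothalamus by the same Z test. Of all genes, 4.33% were called higher and 2.72% lower in DR against AL. In DR-AL against AL, 6.06% were called higher and 9.02% lower. DR against AL called 1 higher and 1 lower of 36 excitatory partners, 1 higher of 15 inhibitory partners and 3 higher of 20 genes of transmitter synthesis and transport. DR-AL against AL called 6 higher and 4 lower of the excitatory partners, 1 lower of the inhibitory partners, and 7 higher and 1 lower of the transmitter genes. Among the last, Gad2 and Slc32a1, which make GABA and load it into vesicles, measured 312, 389 and 496 CPM and 110, 134 and 178 CPM in AL, DR and DR-AL, and Slc17a7, a gene of the telencephalic list, 1.95, 35.0 and 11.8 CPM.

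Outside the brain, between 12 and 21 of the 47 receptor genes had more than 3 counts in a liver library. This held for between 22 and 36 genes in fat and between 17 and 28 in colon. In each of the 9 libraries of liver, fat and colon, 7 genes had at most 3 counts. Another 4 had a higher level there than in any brain library. Gabrp, the pi subunit known from epithelia, had 58, 47 and 64 counts in the AL, DR and DR-AL colon libraries and at most 1 count in a brain library. Gabrr2 had 106, 9 and 95 counts in fat, with 4.04 CPM in AL fat against at most 3.69 CPM in the brain. Grin3b reached 44 counts and Grm6 11 counts in DR-AL fat. Among genes with substantial levels in other tissues, Gabbr2 had 534, 709 and 434 counts in liver, Grin3a 471, 120 and 198 counts in colon, and Gabrd 154, 203 and 183 counts in colon. In fat, Gabbr1 had 1473, 1048 and 1731 counts and Grik5 959, 1066 and 1609 counts. Each of these values is 1 library, and no comparison between diets was made outside the brain.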

How the data were processed

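RNA-Seq libraries were made from pools of 5 mice, 1 for each of 5 tissues and 3 diets. The authors deposited a table of loci with counts and FPKM values for every library. According to the methods, the authors removed ribosomal RNA, kept the strand, discarded duplicate reads and aligned to mm10 after trimming, whereas the submitters' processing notes name mm9 and DESeq2. All 47 receptor genes lie on the chromosome and strand that GENCODE M21 gives them on GRCm38, but the positions of only 17 overlap, so the table's positions are not those of GRCm38. The deposited counts are whole numbers without normalization, between 21767088 and 40500130 per library on named loci, and between 0.478% and 0.739% of the brain counts fell on loci without a name, which were left out. The deposited FPKM values are scaled by length and depth and were used only within a library.

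The regions were compared with edgeR 4.0.16 (TMM, filterByExpr, quasi-likelihood test, region and diet as terms, Benjamini-Hochberg over 15742 genes, common coefficient of variation 0.0835). Diet serves as the block that pairs the regions, since both come from the same mice. Deviations from the region means correlated by 0.157 (AL), 0.339 (DR) and 0.0558 (DR-AL) over 12745 genes. Diets within a region were compared with the Z test of the methods (square roots of counts divided by totals, Poisson variance, Benjamini-Hochberg over 19320 genes in the hypothalamus and 18804 in the hippocampus). Log2 differences between libraries use a pseudocount of 0.5, and CPM are counts scaled to the total on named loci. Values by library are given for the 6 largest regional differences in each direction, the 3 largest called diet differences per comparison and direction with a mean of at least 100 counts, genes called in DR and DR-AL alike, the highest FPKM of each family and genes higher outside the brain. Some genes within this rule are not reported here. Other genes are printed as examples of their family, chosen after their values were seen. The receptor genes and all gene lists were chosen with earlier results of these data known. Alternatives were DESeq size factors, DESeq2 1.42.0, no filter, no block, library totals (chosen after the data were seen), an exact test with a coefficient of variation of 0.1, a fold of 2, FPKM with a pseudocount of 0.1 and each library left out.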

Additional observations from a re-analysis of the deposited data

Results flagged for a closer look

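Gabrq differed in direction between the regions for DR-AL against AL, with a log2 difference of -0.50 in hypothalamus libraries and 1.59 in hippocampus libraries. Gabre did so for DR-AL against DR, with -0.51 in the former and 2.12 in the latter. Both genes were called in each region by the Z test, with 1 library per diet, and the difference between the regions was not tested. In the hippocampus these values rest on 30 against 57 counts for Gabrq and on 3 against 12 counts for Gabre.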

How the results depend on the processing

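The count of 35 receptor genes that differed between the regions ranged between 33 and 37 over the alternatives and was 36 with no replicate block. With library totals, Grid1 (-0.24), Grm7 (-0.29) and Gabbr1 were also called and Grik5 was not. Differences near 0 changed sign: Grid1 (0.0042 without hippocampus AL, 0.039 without hippocampus DR-AL and 0.042 without hypothalamus DR-AL, and down to -0.058 without other libraries) and Gabbr1 (-0.22 with library totals, -0.010 without hippocampus DR and -0.016 without hypothalamus DR). The shared diet count ranged between 0 and 1 for DR and between 0 and 8 for DR-AL when a library was left out. In the hypothalamus, DR against AL gave 5 calls, 1 (Grm2) with a fold of 2 or with the exact test at a coefficient of variation of 0.1. DR-AL against AL gave 14 calls, 2 (Gabrd and Gabre) with a fold of 2, 5 (among them Grm4, Gabrd, Grm2 and Gabre) with the exact test, and 13 higher and 4 lower with size factors. DR-AL against DR gave 9 calls, and 0 with a fold of 2 or the exact test. In the hippocampus, DR-AL against AL gave 3 calls, 1 (Gabrq) with a fold of 2 or the exact test, and DR-AL against DR gave 3 calls and 0 with the exact test. Of 383 values recomputed for the results reported, 339 kept their direction and their side of the threshold. Genes under 20 counts, such as Gabre in the hippocampus and Gabrr1, are limited by depth, and with 1 pooled library per diet and region the exact test's coefficient of variation is assumed, not measured.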
